A study of Homo sapiens with 7 samples.

Results

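The genes described here encode aminoacyl-tRNA synthetases, the enzymes that load each amino acid onto its transfer RNA, together with 3 scaffold proteins that hold some of them in a complex. There were 39 such genes among the 20037 protein-coding genes of the GRCh38.p14 annotation. They were chosen by name: 20 genes of cytosolic synthetases, 3 scaffold genes (AIMP1, AIMP2 and EEF1E1) and 16 genes of mitochondrial synthetases, whose symbols end in 2. AIMP2 also ends in 2 but encodes a cytosolic scaffold protein and was grouped with the scaffolds. A peak belonged to a gene when its centre lay inside the gene span or within 5 kb of it.

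Protein binding was mapped by ChIP-seq, the sequencing of DNA pulled down with an antibody to a bound protein, in the established colon adenocarcinoma line DLD-1. Every group carried MycER, a retrovirally expressed MYC protein fused to a hormone-binding domain of the estrogen receptor, which 4-hydroxytamoxifen switches on. ATF4 was profiled in 2 control libraries (vehicle, per the labels' protocols) and in 2 libraries after 8 hr with the inducer at 500 nM. MYC was profiled in 2 libraries after the same 8 hr at 500 nM. No group received the inducer without MycER, so the inducer and MYC activation cannot be told apart. MYC binding without the inducer was not analysed here. The labels do not say whether the MYC antibody told MycER from the cell's own MYC. Nothing in the labels says that the replicates were separate cultures, so their spread may be technical. Peak lists of DNA-binding proteins hold no expression values, and the identity of the cells was not checked from them.

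The deposited values put the replicate 1 libraries at 21.04 to 24.95 M tags (M, 1e6) and the replicate 2 libraries at 49.77 to 50.3 M. Lists of replicate 2 were longer for each group, with 1579 and 2231 ATF4 peaks (control and activated) against 916 and 1270 in replicate 1, and 22532 against 8636 MYC peaks. The lowest tag count listed was 4.46 and 2.98 in the control ATF4 replicates 1 and 2, and 3.21 and 2.81 in the activated ones. A gene without a listed peak may therefore carry binding under these levels. Every listed peak also stood at least 4-fold over its surroundings, so binding above these levels may go unlisted too. Values below are the authors' normalized tag counts per peak, called tags and taken as per 10 M tags of a library, the usual scale of the HOMER peak finder, and a gene with several peaks in a library is given by its strongest.

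ATF4 carries out much of the gene program of the integrated stress response. Its messenger RNA is translated better when the initiation factor eIF2 is phosphorylated, for example when uncharged transfer RNA accumulates and activates the kinase GCN2. ATF4 binds as a dimer, often with a C/EBP protein, to sites with the core TGATGCAA, and genes of amino acid import, amino acid synthesis and transfer RNA charging are among its known targets. MYC binds with MAX to the E-box CACGTG and is known for its presence at many genes of protein synthesis. Cytosolic synthetases charge transfer RNA for translation of nuclear genes, and mitochondrial synthetases, also encoded in the nucleus, charge it for the few proteins made inside mitochondria.

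ATF4 peaks lay at cytosolic synthetase genes and at none of those grouped as mitochondrial. Of the 20 cytosolic synthetase genes, 13 (65%) had an ATF4 peak in at least 1 of the 4 libraries, as did AIMP1 and EEF1E1 of the 3 scaffold genes. None of the 16 mitochondrial synthetase genes had an ATF4 peak in any of the 4 libraries. GARS1 and KARS1, grouped as cytosolic, serve both compartments from a single gene, and GARS1 had an ATF4 peak in both activated libraries. Of all protein-coding genes, 13.3% had an ATF4 peak in at least 1 of the 4 libraries. Among the 10925 genes with a MYC peak in the deeper MYC library, which holds most genes of both kinds, the share was 19.2%. Counted over genes, the 95% confidence interval of the mitochondrial share was 0 to 20.6%, which includes both 13.3% and 19.2%. The count of 0 among 16 genes therefore does not set the mitochondrial genes apart from protein-coding genes as a whole. The interval of the cytosolic share was 40.8 to 84.6%, above both. The gene spans, which set how much sequence is searched, had a median of 35020 bp for cytosolic synthetases, 28403 bp for mitochondrial synthetases and 24115 bp for all protein-coding genes. With the search widened to 10 kb around the span, the mitochondrial count was still 0 and the cytosolic count 13. Genes are not replicates of a condition, so the difference between the gene groups carries no test here.

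**Figure D1:**
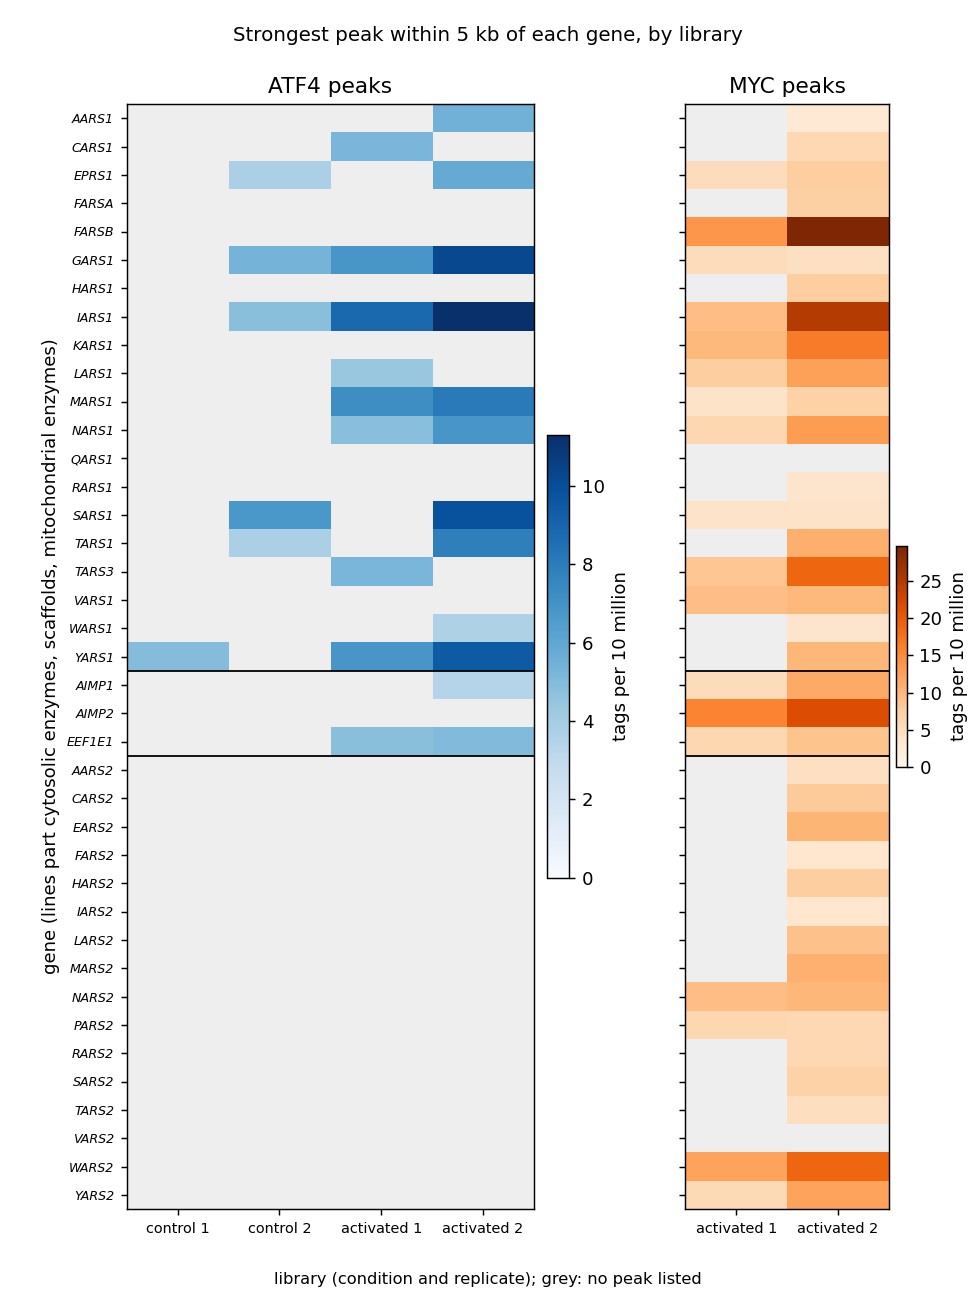
Strongest ATF4 (left, blue) and MYC (right, orange) peak within 5 kb of each of the 39 genes (rows) in each library (columns), coloured by tags per 10 M on a separate scale for each factor; grey cells have no listed peak, and the lines part the 20 cytosolic synthetases, the 3 scaffolds and the 16 mitochondrial synthetases. The ATF4 panel is grey in every mitochondrial row, while the column of MYC replicate 2 is filled for 37 of the 39 genes.

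The number of the 39 genes with an ATF4 peak was 1 in control replicate 1 (2.56%, against 2.5% of all protein-coding genes) and 5 in control replicate 2 (12.8%, against 4.59%). It was 9 in activated replicate 1 (23.1%, against 3.59%) and 12 in activated replicate 2 (30.8%, against 6.61%). Both activated libraries thus held more of these genes than both control libraries, by 8 within replicate 1 and by 7 within replicate 2. The means were 3 ± 2.83 in control and 10.5 ± 2.12 after activation (SD, n = 2). A two-sided exact permutation test over the libraries gave p = 0.333, which is the smallest p that 2 against 2 libraries allow. Lists of the activated libraries were also longer as a whole, and the peaks at these genes made up 0.109% and 0.38% of the control lists and 0.866% and 0.628% of the activated lists in replicates 1 and 2. Counted over conditions, 6 genes (15.4%, against 6.47% of all protein-coding genes) had an ATF4 peak in at least 1 control library and 15 (38.5%, against 8.79%) in at least 1 activated library. There were 9 with a peak in activated libraries only (23.1%, against 6.81%). No gene of the group had an ATF4 peak in control libraries alone, against 4.49% of all protein-coding genes with a peak in at least 1 control library and in neither activated library.

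**Figure D2:**
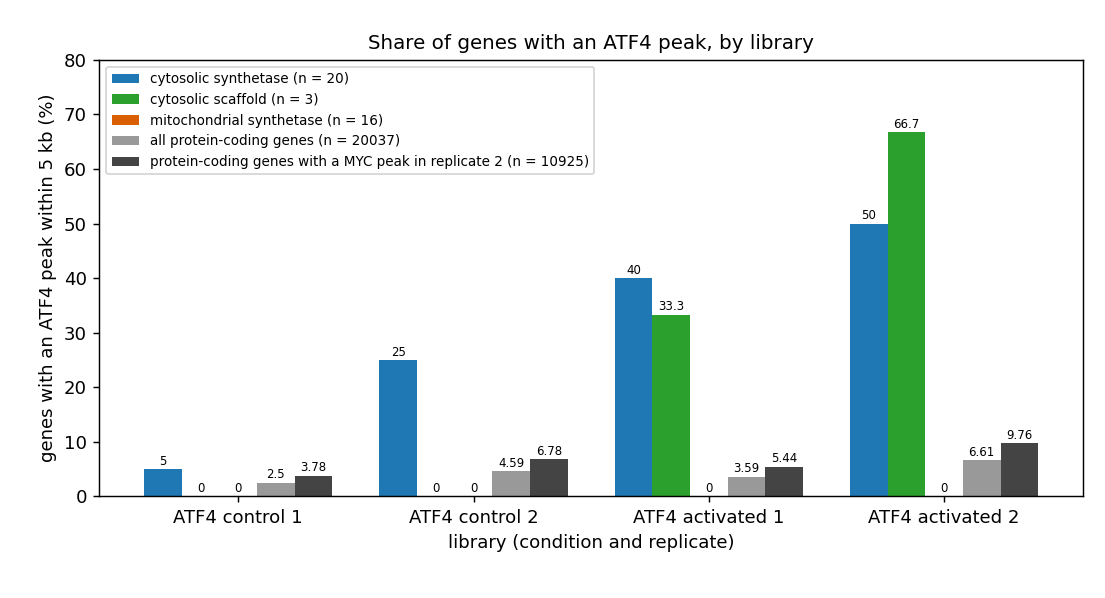
Share of genes with an ATF4 peak within 5 kb (vertical axis, percent, from 0) in each ATF4 library (horizontal axis), for the 3 gene groups, for all protein-coding genes and for those with a MYC peak in replicate 2. Cytosolic synthetases stand at 5, 25, 40 and 50% from left to right, mitochondrial synthetases at 0% in each library, and all protein-coding genes at 2.5 to 6.61%.

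In 6 genes the ATF4 peak was present in both activated libraries (15.4%, against 1.41% of all protein-coding genes): the cytosolic synthetases GARS1, IARS1, MARS1, NARS1 and YARS1 and the scaffold EEF1E1. Of these, MARS1, NARS1 and EEF1E1 had no listed peak in either control library (7.69% of the 39 genes, against 0.564%). No gene of the group had a peak in both control libraries (0.624% of all protein-coding genes). As a result none of the 39 genes had a region with a peak in all 4 ATF4 libraries. The fit of tags by limma covers only such regions. It called 39 of 105 higher (37.1%) and 0 lower after activation, with 57 and 0 at an unadjusted limma p under 0.05, and gives no test of any gene described here. The calls were 0 with a replicate block and 0 without any 1 of the 4 libraries, and centring each library on its median turned them to 0 higher and 9 lower.

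IARS1, which charges isoleucine and belongs to the multisynthetase complex, had the highest ATF4 values of the group after activation. Its peak had 8.82 and 11.3 tags in activated replicates 1 and 2 and 4.77 in control replicate 2, with none listed in control replicate 1. The activated libraries were both above the single control value and above the lowest tag count listed in control replicate 1. The peak was 38.18-fold and 48.71-fold over the authors' background library in the activated replicates and 20.66-fold in control replicate 2. Its centre lay within 15 bp of the annotated start of IARS1 in all 3 libraries (hg38 chromosome 9, 92293600 to 92293804 in activated replicate 2, minus strand). Weaker ATF4 peaks inside the gene, each in 1 library, had 4.81 tags 7468 bp from the start in activated replicate 1 and 4.37 tags 17963 bp from it in control replicate 2.

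The sequence upstream of IARS1 is shown because it holds both motifs under study, each in capitals, and because both factors had a peak there. The 250 bases before the annotated start are given on the minus strand, 5′ to 3′, from RefSeq GRCh38.p14 (chr9:92293698-92293947).
IARS1: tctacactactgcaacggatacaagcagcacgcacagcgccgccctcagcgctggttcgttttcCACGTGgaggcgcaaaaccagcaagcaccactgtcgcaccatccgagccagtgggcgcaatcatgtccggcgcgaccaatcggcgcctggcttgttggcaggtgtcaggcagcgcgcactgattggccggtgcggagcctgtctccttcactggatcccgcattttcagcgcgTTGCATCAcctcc
TTGCATCA, the reverse complement of TGATGCAA, begins at position -13, counted back from the start, and CACGTG begins at -186. The centres of the ATF4 peaks lay 0.5, 24.5 and 4.5 bp from the middle of TTGCATCA in control replicate 2 and activated replicates 1 and 2. The centre of the MYC peak lay 2.5 bp from the middle of CACGTG in replicate 1 and 200.5 bp from it in replicate 2, where it lay 26.5 bp from TTGCATCA instead. The 2 MYC replicates thus placed the peak at different ends of this stretch, at 9.51 and 24.9 tags.

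The same 8 letters stood at the starts of other cytosolic synthetase genes. Promoter windows, from 250 bases before to 50 after an annotated start, were at hand for 33 of the 39 genes, and LARS1, TARS3, VARS1, YARS1, AARS2 and VARS2 had none. The motif TGATGNAA, in which N is any base, was searched on both strands. It includes every TGATGCAA. TGATGCAA was found at 6 of the 16 cytosolic synthetase genes with a window (37.5%), at 0 of 3 scaffold genes and at 0 of 14 mitochondrial genes, against 1.08% of all 27305 genes with a window, and 0.866% of all 35116 windows held it. TGATGNAA added TTTCATCA at GARS1 and TGATGGAA at the mitochondrial YARS2, and stood at 4.46% of all genes with a window and in 3.62% of all windows. A match is a description of the letters and not evidence of a bound site.

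The 6 genes with TGATGCAA are shown with 11 bases on either side, in the direction of each gene and from RefSeq GRCh38.p14, with the match in capitals, to let the letters be compared with the ATF4 peaks.
AARS1: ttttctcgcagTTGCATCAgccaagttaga
CARS1: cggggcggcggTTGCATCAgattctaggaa
IARS1: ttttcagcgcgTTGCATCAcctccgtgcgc
MARS1: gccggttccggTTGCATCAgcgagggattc
NARS1: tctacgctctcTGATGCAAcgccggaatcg
TARS1: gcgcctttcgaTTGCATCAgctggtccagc
The matches lie at chromosome 16, 70289686 to 70289693 (AARS1), chromosome 11, 3057418 to 3057425 (CARS1), chromosome 9, 92293703 to 92293710 (IARS1), chromosome 12, 57488064 to 57488071 (MARS1), chromosome 18, 57621815 to 57621822 (NARS1) and chromosome 5, 33440967 to 33440974 (TARS1). Of the 6, 5 had an ATF4 peak over the match in activated replicate 2, with centres 38.5 bp (AARS1), 4.5 bp (IARS1), 2.5 bp (MARS1), 22.5 bp (NARS1) and 9.5 bp (TARS1) from its middle. CARS1 was the exception, since its only ATF4 peak, in activated replicate 1, lay 14376 bp from the end of the gene that holds the match. Over the whole annotation, 16 promoter windows held an ATF4 peak centre in both activated libraries, those of IARS1, MARS1 and NARS1 among them, and 13 of the 16 (81.2%) held TGATGCAA. The 13 include a window of S100PBP, an end of which lies within 1 kb of the ATF4 peak at YARS1, a gene with no window of its own.

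**Figure D3:**
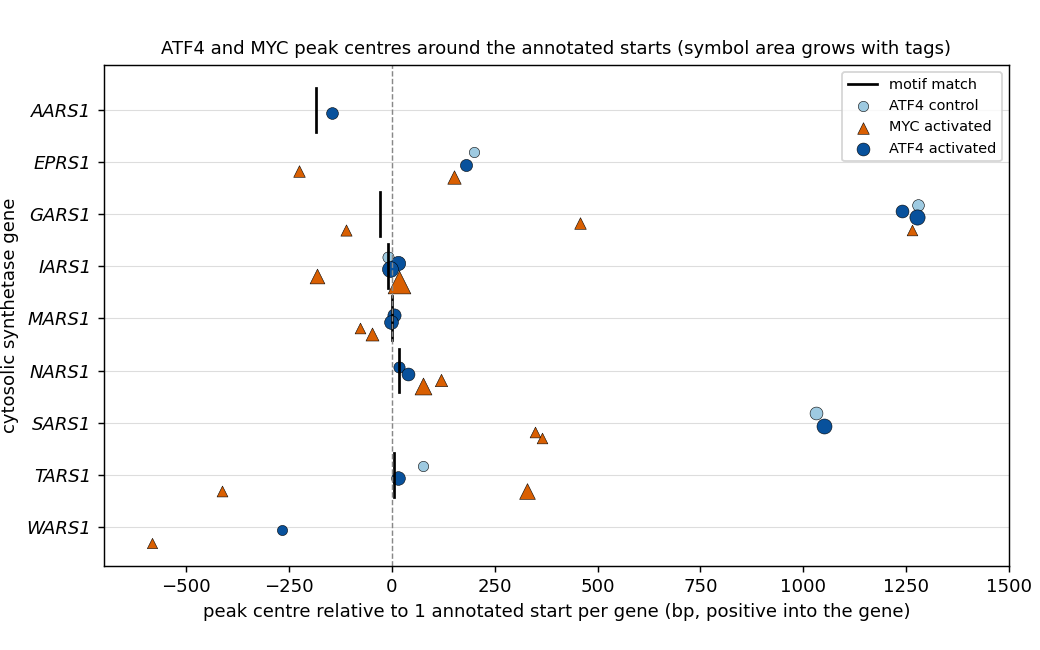
Peak centres of ATF4 (circles, light for control and dark for activated) and MYC (triangles) around the annotated start nearest to the ATF4 peak of activated replicate 2 (horizontal axis, bp, positive into the gene) for the 9 cytosolic synthetase genes with an ATF4 peak in that library and an annotated start; symbol area grows with tags and vertical bars mark matches to TGATGNAA. At IARS1, MARS1, NARS1 and TARS1 dark circles lie on or beside the bars, while at GARS1 and SARS1 the ATF4 peaks lie 1031 to 1280 bp into the gene.

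MARS1 and NARS1 had ATF4 peaks at their starts in activated cells only. MARS1, which charges methionine both for initiation and for elongation, had 7.22 and 8.04 tags in activated replicates 1 and 2, at 7.81-fold and 6.96-fold over background, and no listed peak in either control library (chromosome 12, 57487963 to 57488167 in activated replicate 2). The centres lay 4 and 3 bp from the annotated start, and an end of ARHGAP9 lies within 1 kb as well. Both values were above the lowest tag count listed in each control library. A further ATF4 peak of activated replicate 2 (5.83 tags) lay 4160 bp beyond MARS1 and was the ATF4 peak nearest to the 5 kb limit from inside. Ends of DDIT3, which encodes the stress factor CHOP, of MBD6 and of LOC128125814 all lie within 1 kb of it, so it cannot be assigned to 1 gene. From outside, no ATF4 peak lay between 5 and 10 kb from any of the 39 genes.

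NARS1, which charges asparagine, had 4.81 and 6.83 tags in activated replicates 1 and 2 and no listed control peak. The weaker of these stands just above the 4.46 tags at which the list of control replicate 1 begins. The peak (chromosome 18, 57621694 to 57621898 in activated replicate 2) covered the motif, whose first base is the 15th base of the transcript by this start. At EEF1E1, a scaffold protein also called AIMP3, the ATF4 peak of 4.81 and 5.02 tags lay inside the gene, 17324 and 17336 bp from its start (chromosome 6, 8085110 to 8085314). Neither MYC library had a peak overlapping it.

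YARS1 and GARS1 had an ATF4 peak in 3 of the 4 libraries each. YARS1, which charges tyrosine, had 4.91 tags in control replicate 1, none listed in control replicate 2, and 6.81 and 9.44 in activated replicates 1 and 2. This peak lay at an end of the gene (chromosome 1, 32817252 to 32817456 in activated replicate 2) which an end of S100PBP shares within 1 kb. A second ATF4 peak of YARS1, 2924 and 2912 bp inside that end, had 5.21 and 7.43 tags in the activated replicates and no listed control peak. GARS1, which charges glycine in both the cytosol and mitochondria from a single gene, had 5.37 tags in control replicate 2, none listed in control replicate 1, and 6.81 and 10.2 in activated replicates 1 and 2. The GARS1 peak lay inside the gene, 1240 to 1280 bp from the nearer annotated start (chromosome 7, 30596052 to 30596256), and not over TTTCATCA, which is 1305.5 bp away. KARS1, which likewise serves both compartments from a single gene, had no ATF4 peak.

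SARS1, TARS1 and EPRS1 had an ATF4 peak in replicate 2 of both conditions and in neither replicate 1 library. SARS1, which charges serine and supplies the first step towards selenocysteine, had 6.76 tags in control and 9.85 after activation, 1031 and 1050 bp into the gene (chromosome 1, 109214866 to 109215070). TARS1, which charges threonine, had 3.78 and 7.84 tags at its second annotated start (chromosome 5, 33440878 to 33441082). EPRS1, the fused enzyme for glutamate and proline, had 3.78 and 5.83 tags 199 and 179 bp into the gene (chromosome 1, 220046224 to 220046428). Its promoter window held no TGATGNAA, and the peak centre lies outside that window. The control values of TARS1 and EPRS1, at 3.78 tags, are under the lowest value listed in control replicate 1.

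At the 5 genes with a peak in both replicate 2 libraries the activated value was the higher one. The ratio of activated to control tags was 1.46 for SARS1, 1.54 for EPRS1, 1.90 for GARS1, 2.07 for TARS1 and 2.37 for IARS1, with a median of 1.90. Over all 235 regions with a peak in both replicate 2 libraries the median was 1.56 and 84.7% were higher after activation, so a direction shared by 5 genes is near what these 2 libraries show as a whole. Within replicate 1 only YARS1 could be compared (4.91 and 6.81 tags, ratio 1.39), where the median over 220 regions was 1.01 and 51.4% were higher. These ratios rest on 1 library a condition and carry no test.

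**Figure D4:**
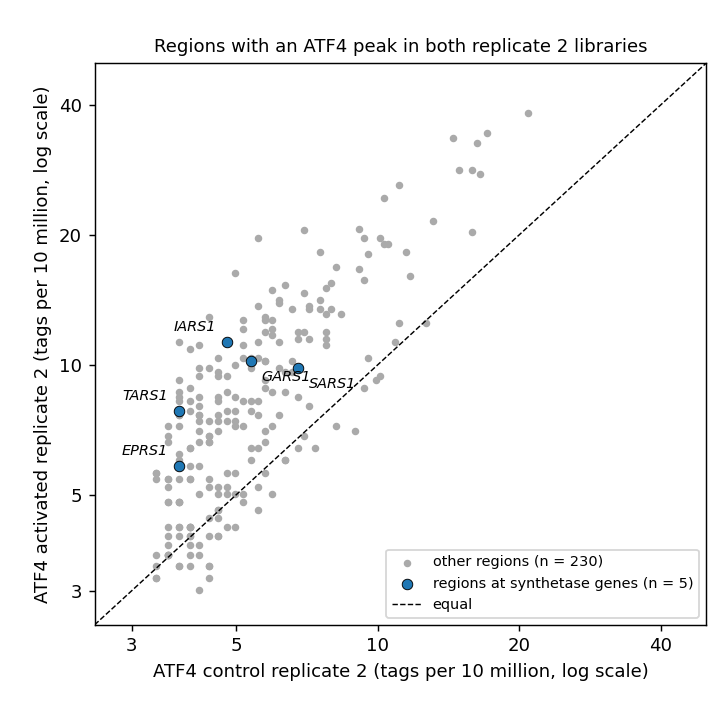
ATF4 tags in control replicate 2 (horizontal axis) and activated replicate 2 (vertical axis, both log scales, tags per 10 M) at the 235 regions with a peak in both libraries; blue points are the 5 regions at synthetase genes and the dashed line marks equal values. All 5 lie above the line, with ratios of 1.46 to 2.37, within the cloud of points, whose ratios run from 0.722 to 3.54 over the 235 regions.

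Other cytosolic genes had an ATF4 peak in a single library. AARS1, which charges alanine, had 5.43 tags in activated replicate 2, 145 bp upstream of its start, where an end of DDX19B lies within 1 kb. WARS1, which charges tryptophan, had 3.62 tags in that library, 266 bp upstream of its inner start. AIMP1, a scaffold protein, had 3.42 tags at 2.11-fold over background, 10491 bp into the gene. In activated replicate 1 alone, CARS1 (cysteine) had 5.21 tags, TARS3, a second threonine enzyme, had 5.21 and LARS1 (leucine) had 4.41. The CARS1 peak lay 2063 bp from the nearer annotated start, and those of TARS3 and LARS1 lay inside the gene, 4486 and 7725 bp from its nearer end. The AARS1 peak lay over its motif, and those of CARS1, AIMP1, TARS3 and LARS1 lay away from the gene ends. The cytosolic genes with no ATF4 peak in any library were FARSA and FARSB, the 2 subunits of the phenylalanine enzyme, HARS1 (histidine), KARS1 (lysine), QARS1 (glutamine), RARS1 (arginine), VARS1 (valine) and the scaffold AIMP2.

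The multisynthetase complex is a cytosolic assembly of several synthetases with AIMP1, AIMP2 and EEF1E1, and genes of its members stood both among those with ATF4 and among those without. Of 7 synthetases of the complex in the group, 4 (EPRS1, IARS1, LARS1 and MARS1) had an ATF4 peak in at least 1 library and 2 in both activated libraries. Of the 13 other cytosolic synthetases the numbers were 9 and 3, and of all protein-coding genes 13.3% and 1.41%. This division was made after the values were known.

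MYC had peaks at genes of both compartments. In MYC replicate 2, 19 of 20 cytosolic, 3 of 3 scaffold and 15 of 16 mitochondrial genes had a peak, 37 of 39 in all (94.9%, against 54.5% of all protein-coding genes). In MYC replicate 1, with fewer tags, 11 cytosolic, 3 scaffold and 4 mitochondrial genes had one, 18 of 39 in all (46.2%, against 25.9%), and each of these 18 also had a peak in replicate 2 (24.7% of all protein-coding genes had both). The compartments were therefore level in the deeper library, at 95% and 93.8%, and stood at 55% and 25% in the shallower one. The mitochondrial share in the shallower library was near that of all protein-coding genes (25.9%). QARS1 and VARS2 had no MYC peak in either library (5.13%, against 44.2%). VARS2 had MYC peaks 6179 and 6221 bp beyond its span, within 1 kb of an end of GTF2H4, and these lie outside the 5 kb limit.

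The highest mean MYC value of the group was at FARSB, the beta subunit of the phenylalanine enzyme, with 13.8 and 29.7 tags in replicates 1 and 2 (chromosome 2, 222655948 to 222656124 in replicate 2), 103 and 56 bp into the gene. The alpha subunit FARSA had no listed peak in replicate 1 and 7.38 tags in replicate 2, so the 2 subunits of this enzyme differed in MYC signal while both lacked ATF4. AIMP2 had 15.7 and 21.8 tags (chromosome 7, 6009267 to 6009443) and IARS1 9.51 and 24.9. WARS2 was the highest mitochondrial gene, with 12.4 and 18.8 tags 87 and 76 bp from its nearer start (chromosome 1, 119140489 to 119140665), while its cytosolic counterpart WARS1 had 3.79 tags in replicate 2 only. KARS1 had 9.98 and 16.6 tags, with an end of TERF2IP within 1 kb, and TARS3 8.56 and 18.8, at a peak beyond the gene that lies within 1 kb of an end of TM2D3.

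LARS1 had 7.61 and 12.6 MYC tags, NARS1 6.18 and 13, NARS2 9.51 and 10.2 and VARS1 9.51 and 9.98, which completes the 10 highest by the mean of both libraries among genes with a peak in each. Lower by that mean were AIMP1 at 5.23 and 11.6 tags, EEF1E1 at 6.18 and 8.78, EPRS1 at 5.23 and 7.58, MARS1 at 4.28 and 6.99 and GARS1 at 5.23 and 4.79. NARS1 and NARS2 both charge asparagine, and each had a MYC peak in both libraries. Both replicates placed FARSB above IARS1, but AIMP2 stood above FARSB in replicate 1 and below it in replicate 2, so neighbours in this order do not differ beyond the spread of the libraries. Among the genes with a MYC peak in both libraries, the median was 7.61 and 12.6 tags in replicates 1 and 2 for 11 cytosolic synthetases and 7.845 and 11.3 for 4 mitochondrial ones, against 6.18 and 9.58 for all 4950 such protein-coding genes.

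**Figure D5:**
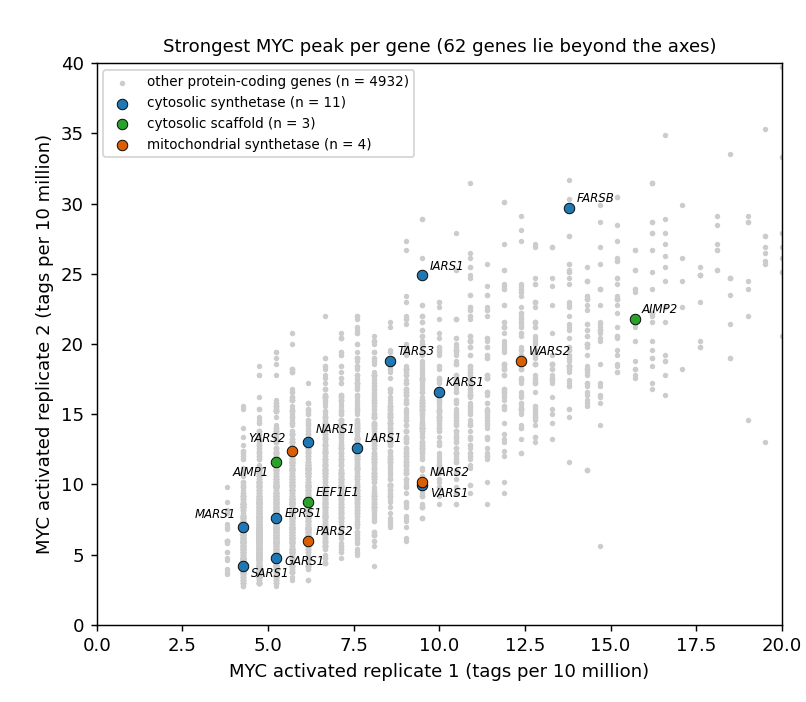
Strongest MYC peak per gene in replicate 1 (horizontal axis) and replicate 2 (vertical axis, both tags per 10 M) for genes with a MYC peak in both libraries, in grey for other protein-coding genes and coloured for the 11 cytosolic synthetases, 3 scaffolds and 4 mitochondrial synthetases. FARSB, IARS1, AIMP2, WARS2 and TARS3 lie highest of the group on the vertical axis, and 62 genes with more tags lie beyond the axes.

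The strongest MYC peak mostly stood at the start of the gene. Of the 32 genes with a replicate 2 peak and an annotated start, 27 had their strongest peak within 500 bp of one (84.4%, against 37.6% of 8876 protein-coding genes counted likewise), with a median distance of 96 bp for cytosolic and 120 bp for mitochondrial synthetases. The E-box CACGTG, which reads the same on both strands, was found in the windows of IARS1, AIMP2 and the mitochondrial CARS2, EARS2 and MARS2, which are 1 of 16, 1 of 3 and 3 of 14 genes with a window (6.25, 33.3 and 21.4%), against 8.77% of all 27305 such genes. It stood in 7.26% of all windows and in 31.7% of the 546 windows with a MYC peak centre in both libraries. MARS2 is shown because its E-box lies at the start, beside a MYC peak of 10.8 tags in replicate 2 whose listed interval does not cover it. Unlike MARS1, MARS2 had no ATF4 peak. For MYC, MARS1 had a peak in both libraries (4.28 and 6.99 tags) and MARS2 in replicate 2 only. The 250 bases before its start are on the plus strand (chr2:197705119-197705368, RefSeq GRCh38.p14), with CACGTG in capitals.
MARS2: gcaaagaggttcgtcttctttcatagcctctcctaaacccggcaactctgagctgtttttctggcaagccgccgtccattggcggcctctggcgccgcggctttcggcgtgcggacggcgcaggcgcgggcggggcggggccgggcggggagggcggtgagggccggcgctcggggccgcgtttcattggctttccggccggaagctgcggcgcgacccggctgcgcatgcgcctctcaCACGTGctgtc
The middle of CACGTG lay 117.5 bp from the centre of this MYC peak. At EARS2 (10.4 tags) the distance was 12.5 bp and at CARS2 (7.98 tags) 34.5 bp, both in replicate 2 only. At AIMP2 it was 155.5 and 137.5 bp in replicates 1 and 2.

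Of the remaining mitochondrial genes, 2 had a MYC peak in both libraries. YARS2 had 5.7 and 12.4 tags and PARS2, for proline, 6.18 and 5.99. In replicate 2 alone LARS2 had 8.98 tags, HARS2 7.58, SARS2 6.99, RARS2 5.99, TARS2 4.99, AARS2 4.79, FARS2 3.59 and IARS2 3.59. The HARS2 peak is the same peak as that of HARS1, since the starts of the 2 genes lie back to back, and it cannot be assigned to either gene. The IARS2 value comes from a peak 4350 bp outside the span, at 1.73-fold over background and within 1 kb of an end of BPNT1, and the peak 236 bp into IARS2 had 3.39 tags. The AARS2 value likewise comes from a peak 3655 bp outside the span, at 2.3-fold over background, and its peak inside the gene had 3.59 tags. Of the cytosolic genes with a MYC peak in replicate 2 only, YARS1 had 10.2 tags, TARS1 11, HARS1 7.58, CARS1 5.99, RARS1 3.79 and AARS1 2.99, the last beyond the far end of the gene and within 1 kb of an end of EXOSC6.

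Cytosolic and mitochondrial genes whose symbols differ only in ending in 1 or 2 formed 13 pairs of enzymes for the same amino acid. This rule left EPRS1, FARSA, FARSB, TARS3, EARS2, PARS2 and FARS2 unpaired, though they share amino acids across the compartments. ATF4 had a peak in at least 1 library at the cytosolic gene in 10 pairs and at the mitochondrial gene in 0. MYC had a peak in both libraries at the cytosolic gene in 6 pairs and at the mitochondrial gene in 3. The shares over all protein-coding genes were 13.3% for ATF4 in at least 1 library and 24.7% for MYC in both. In MYC replicate 2 both genes had a peak in 12 pairs. The cytosolic gene had the higher value in 4 of these (IARS1, LARS1, NARS1 and TARS1) and the mitochondrial gene in 7, and the HARS1 and HARS2 pair shares its peak.

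ATF4 and MYC peaks lay on each other at several synthetase starts in activated cells. Of the 39 genes, 5 (12.8%, against 0.873% of all protein-coding genes) had a peak in both activated ATF4 and both MYC libraries within the 5 kb window, namely GARS1, IARS1, MARS1, NARS1 and EEF1E1. This count does not require the peaks to overlap, and at EEF1E1 they overlapped in no pair of libraries. At MARS1 the centres of the 2 factors were 46 to 82 bp apart over the 4 pairs of libraries, and at NARS1 36 to 101 bp, with overlapping peaks in every pair. At IARS1 the ATF4 peaks lay 2 and 22 bp from the MYC peak of replicate 2 and 196 and 176 bp from that of replicate 1. At YARS1 the distance to the MYC peak of replicate 2 was 24 and 5 bp, and replicate 1 had no MYC peak there. Of the ATF4 peaks at the 39 genes, 5 of 11 in activated replicate 1 and 6 of 14 in activated replicate 2 overlapped a MYC peak of replicate 2 (45.5% and 42.9%), against 13.2% and 12.7% of all peaks in those lists. The whole lists are not limited to peaks near genes, as the peaks at the 39 genes are. A share over peaks near any gene was not computed, so these shares are not of like sets.

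EPRS1 had overlapping peaks too, with its ATF4 peak of activated replicate 2 29 bp from the MYC peak of replicate 2 and 405 bp from that of replicate 1. The ATF4 peak of GARS1 lay 783 and 819 bp from the MYC peak of replicate 1, but 24 and 12 bp from a weak MYC peak of replicate 2 (4.19 tags). At SARS1, TARS1 and AARS1 the peaks did not overlap. SARS1 had its MYC peaks (4.28 and 4.19 tags) 703 and 685 bp from its ATF4 peak, TARS1 314 bp away in replicate 2, and AARS1 had none near its start. Of these 10 genes highest for MYC by the mean, those with no ATF4 peak were FARSB, AIMP2, KARS1 and VARS1 among the cytosolic group and WARS2 and NARS2 among the mitochondrial.

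Genes that serve or process transfer RNA but charge none with its own amino acid were taken as related lists. Of 12 charging partners, which handle selenocysteine, formylmethionine, mischarged or peptidyl transfer RNA, 0 had an ATF4 peak in both activated libraries, 1 had one in activated replicate 1 alone (DTD1, a proofreading enzyme, 4.81 tags) and 4 had MYC in both libraries (33.3%). Of 21 maturation and export genes, 1 had ATF4 in both activated libraries (4.76%) and 9 had MYC in both (42.9%). Of all protein-coding genes, 1.41% had ATF4 in both activated libraries and 24.7% had MYC in both. The former was TSEN15, a subunit of the splicing endonuclease of transfer RNA, with 4.77 tags in control replicate 2, none listed in control replicate 1, and 7.62 and 7.84 tags in activated replicates 1 and 2. XPOT, which exports transfer RNA from the nucleus, had 4.91 ATF4 tags in control replicate 1 only. The highest MYC values were at TRMU, a mitochondrial modification enzyme (16.6 and 28.9 tags), XPOT (9.03 and 17.2) and TRMT1 (7.13 and 16) in the second list, and at PTRH2 (9.03 and 18.4), GATC (9.51 and 17.4) and EEFSEC (9.98 and 14) in the first. Not all of these peaks lay at the start of the gene. Those of TRMU and EEFSEC lay 17541 and 232015 bp into the gene in replicate 1, and that of XPOT lay beyond its far end, within 1 kb of an end of TBK1.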

How the data were processed

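The data were 6 peak lists, 1 for each ATF4 and MYC library, with groups and replicate numbers from the sample titles; no list of the IgG sample was used here. Per the submitters' processing notes the tools were Bowtie 0.12.9 and HOMER on hg38, and their settings are not given in the sources used here. Per the file headers, the normalized tag count is a signal that the authors scaled for library size. The headers give no scale, and HOMER's usual 10 M tags (M, 1e6) was assumed. The deposited lists also hold a peak score, the focus ratio (a fraction), the p-value of each peak and its fold over the background and the surroundings, all the authors' own values. Total tags are a raw count, per the file headers, in replicate 1 lists, and in replicate 2 lists a signal scaled to the background. The weakest deposited p-value against background was 0.0498. The background library is not named in the headers.

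The genes and lists were chosen with earlier results of these data known. Peak centres were joined to spans of 20037 protein-coding genes of GRCh38.p14, and starts and promoter sequences came from RefSeq. Depth on that scale came from the ratio of raw to normalized tags (replicate 1) and the spacing of low normalized values (replicate 2). ATF4 peaks overlapping by at least 1 bp were merged, and regions with a peak in all 4 libraries were fitted by limma 3.58.1 (R 4.3.3) with a trend on log2(tags + 1), which understates changes of weak regions, with Benjamini-Hochberg adjustment and a threshold of 0.05; limma was tested on simulated data. Numbers of genes were compared over libraries by an exact permutation test. The planned edgeR test needed whole tags, which the normalized values did not return, and was not run. Named were all genes with an ATF4 peak, the 10 highest by mean MYC tags over both libraries and those with no MYC peak, and in the related lists those with ATF4 in both activated libraries and the 3 highest for MYC; others named were chosen after their values were seen. Alternatives were other windows, a 4-fold threshold over background, a common lowest tag count, other pseudocounts, a merge by centres, centring, a replicate block and leaving out each library.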

Additional observations from a re-analysis of the deposited data

How the results depend on the processing

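With 5 kb windows, 5 cytosolic and 0 mitochondrial synthetases had ATF4 in both activated libraries. The difference was 3 inside the gene span only and 4 or 5 under the other windows and thresholds, and 8 to 10 when a single activated library defined the condition (8 without activated replicate 2 and 10 without activated replicate 1). The mitochondrial count was 0 in each of these settings. The activated minus control difference of 7.5 genes with an ATF4 peak was 4 to 8 over the windows and thresholds and 5.5 to 9.5 when leaving out each library in turn. With the replicate block, pairing libraries by number, it was 7.5 (exact permutation p = 0.5, the smallest that 2 pairs allow). The 18 genes with MYC in both libraries were 15 to 19 under the other windows and threshold, 18 without MYC replicate 2 and 37 without MYC replicate 1, where the deeper library counts alone. For 24 factor and gene combinations with a peak in both libraries, the mean of the 2 libraries moved by less than 1 SD in all 46 alternatives that gave a value, and 2 gave none. Only the MYC mean of MARS1 changed, from 5.635 to 5.87 tags with the 10 kb window. Each value is the strongest peak of a gene, which these alternatives could hardly change, so they say little about its stability.

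The limma fit of the 105 common regions, none at these genes, depends on its settings. Its 39 calls were 34 to 39 under the other pseudocounts, merge and fold threshold. They were 0 with the replicate block (smallest limma adjusted p 0.115, 37 regions higher at an unadjusted p under 0.05), and 0 without each library in turn (24 to 47 higher unadjusted; the fit takes the spread of a lone library from the other condition). Centring each library on its median moved the median log2 change from 0.54 to -0.11 and gave 0 higher and 9 lower calls, a net of -9; the cause was not tested. The labels tie same-numbered libraries by a number alone, though they are also alike in depth. Their deviations in replicate 1 correlated at 0.098 over 105 regions, and 2 pairs are too few to show pairing. The lowest tag count listed, 4.46 in control replicate 1 and 2.81 to 3.21 in the other ATF4 libraries, limits what an absent peak shows. So does the fold over the surroundings, which was at least 4 in every list.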
